A study of Mus musculus with 11 samples.

Results

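St18 is a zinc finger transcription factor gene of the Myt family, and it was described here beside 8 factors that build enteroendocrine cells, the hormone-secreting cells of the gut lining: Myt1, Neurog3, Neurod1, Insm1, Pax4, Pax6, Nkx2-2 and Isl1. These 9 genes are taken out of 18820 genes with values. Each had exactly 1 probe set carrying its symbol alone, so all 9 were measured and none was filtered out. The genes were chosen by values measured in these same mice, namely the array level, the difference between the diets and the correlation with St18. Those values are therefore a description of the 9 genes. The calls of the fit over all genes are counted once for them, and nothing is read from that count.

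The values come from mucosal scrapings of the colon of 11 male C57BL/6J mice aged 12 weeks, with 1 expression array per mouse. All mice first ate a low-fat diet for 2 weeks. In the following 10 days the control mice (n = 5) stayed on it, while for the inulin mice (n = 6) corn starch made way for inulin, a fermentable fructan, at 10% of the diet's weight. The labels differ on the end point: the treatment protocol gives each fasted mouse 1 g of its diet and takes tissue 4 h later, whereas the design text takes tissue after the fast. The animals were separate, and the labels name no cage or batch. A scraping holds the whole mucosa, so in these bulk values fewer cells of a type and less RNA per cell cannot be told apart.

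Enteroendocrine cells arise from crypt progenitors that switch on the basic helix-loop-helix (bHLH) factor Neurog3 while Notch signalling holds their neighbours back. Neurog3 is on briefly and is followed by the bHLH factor Neurod1 and the zinc finger factor Insm1, and then by paired-box and homeodomain factors that help to set which hormone a cell makes. St18 and Myt1 are relatives with zinc fingers of the CCHC kind that bind an AAAGTT core, and both are known from neurons and from the endocrine pancreas, where most of these factors are also at work.

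Promoter windows from RefSeq (GRCm38.p6), reaching from 250 bases before to 50 bases after a gene's start, were found for 6 of the 9 genes (Neurog3, Neurod1, Myt1, Pax6, Nkx2-2 and Isl1), with 9 windows in all. Windows of 3 genes are shown, 5′ to 3′ on the strand of the gene: Neurog3 as the gene of the first step, Neurod1 as the factor of the next step, and Chga as the granule protein gene of the finished cell. Capitals mark every match, on either strand, to CAGCTG or CAGATG, which are E-boxes of the kind bHLH factors bind, or to AAAGTT, the core of the Myt family. The windows lie at chr10:62132840-62133139 (plus strand), chr2:79456587-79456886 (minus strand) and chr12:102554691-102554990 (plus strand).
Neurog3: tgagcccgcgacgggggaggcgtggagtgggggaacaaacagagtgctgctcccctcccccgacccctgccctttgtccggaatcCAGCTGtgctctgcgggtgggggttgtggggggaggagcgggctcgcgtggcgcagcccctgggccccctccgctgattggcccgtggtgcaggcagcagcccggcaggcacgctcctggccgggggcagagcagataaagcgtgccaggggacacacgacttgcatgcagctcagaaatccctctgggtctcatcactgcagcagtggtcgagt
Neurod1: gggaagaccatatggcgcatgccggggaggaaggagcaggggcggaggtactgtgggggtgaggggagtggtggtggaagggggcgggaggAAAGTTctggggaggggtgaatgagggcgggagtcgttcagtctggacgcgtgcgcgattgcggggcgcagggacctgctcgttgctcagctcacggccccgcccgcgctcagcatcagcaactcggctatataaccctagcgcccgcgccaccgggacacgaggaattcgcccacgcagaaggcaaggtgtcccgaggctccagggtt
Chga: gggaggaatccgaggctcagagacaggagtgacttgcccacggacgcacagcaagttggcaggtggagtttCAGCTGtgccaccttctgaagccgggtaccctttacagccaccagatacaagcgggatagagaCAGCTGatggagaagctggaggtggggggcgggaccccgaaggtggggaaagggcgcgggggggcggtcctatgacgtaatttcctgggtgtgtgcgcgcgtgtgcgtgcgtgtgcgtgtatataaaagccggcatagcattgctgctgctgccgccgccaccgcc
Neurog3 has 1 CAGCTG, Chga has 2, and Neurod1 has 1 AAAGTT and neither E-box. Among the 9 windows of the 6 genes 3 hold an E-box (Neurog3, Nkx2-2 and Isl1) and 4 hold AAAGTT (Neurod1, Pax6 and 2 of the starts of Myt1). Of all 32851 windows of the same length 30.6% hold an E-box and 14.1% hold AAAGTT. A match is a string of letters and was not tested as a binding site.

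Array values are on a log2 scale, on which a difference of 1 is a doubling, and levels of different genes are not compared because each has its own probes. Arrays had lower quartiles between 3.72 and 3.79 and medians between 5.38 and 5.46. Every value of the 9 genes lay above the lower quartiles, between 4.16 and 6.65, and 4 genes (Neurod1, Insm1, St18 and Pax4) had means above the median of every array. The labelled colon mucosa showed its defining genes, with the goblet cell mucin Muc2 at 13.02 to 13.18 in control and 13.08 to 13.21 in inulin mice, and the enteroendocrine granin Chga at 10.81 to 11.05 and 10.60 to 11.47. Inulin mouse 5 stood apart from the rest. The first principal component of all genes held 30.9% of the variance, and this mouse scored 37.0 on it, with all others from -12.3 to 13.5.

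St18 was lower in every inulin mouse than in any control mouse. The 5 control mice had St18 at 5.94, 5.96, 6.03, 5.90 and 6.00, and the inulin mice ranged from 5.26 in inulin 1 over a median of 5.52 to 5.66 in inulin 4. The groups did not overlap, and the inulin mice were 2.72 times as spread as the control mice by their SDs. The means were 5.97 ± 0.052 (SD, n = 5) and 5.50 ± 0.14 (SD, n = 6). The difference of log2 means was -0.46 ± 0.068 (SE), or 0.726-fold, with a 95% interval of the fold from 0.655 to 0.804. Leaving out inulin 5 gave -0.47, and leaving out each mouse in turn gave -0.49 to -0.41.

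Myt1, the relative of St18, had almost the same level in both diets, with every value below the median of every array. Control mice had Myt1 at 4.43, 4.42, 4.32, 4.26 and 4.41, and inulin mice from 4.22 in inulin 6 over a median of 4.42 to 4.58 in inulin 5. The groups overlapped. The difference was 0.05 ± 0.064 (SE), with an interval from -0.09 to 0.19.

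Neurog3, the factor of the first step, varied more between mice than between diets. Control mice had Neurog3 at 4.35, 4.71, 4.71, 4.25 and 4.31, and inulin mice from 4.16 in inulin 5 over a median of 4.37 to 4.87 in inulin 6. Controls 2 and 3 and inulin 6 were the high mice, and the groups overlapped. All Neurog3 values also lay below the median of every array. The difference was -0.06 ± 0.13 (SE), with an interval from -0.35 to 0.23.

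Neurod1, the bHLH factor that follows Neurog3, had similar means and very different spreads. Control mice had Neurod1 at 6.16, 6.30, 6.22, 6.21 and 6.03, and inulin mice from 5.58 in inulin 5 over a median of 6.19 to 6.65 in inulin 4. Inulin 1 and inulin 4 lay above the controls and inulin 5 and inulin 6 below them, with an SD 3.86 times as large. The difference was -0.03 ± 0.15 (SE), with an interval from -0.36 to 0.31. It was 0.09 without inulin 5 and -0.29 ± 0.11 (SE) with Hoxb13 and Hoxa13, genes of colon position, as covariate.

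Insm1, a zinc finger repressor of the same stage, had the same shape. Control mice had Insm1 at 5.79, 5.60, 5.82, 5.61 and 5.71, and inulin mice from 5.14 in inulin 5 over a median of 5.76 to 6.09 in inulin 4. The lowest and the highest of all 11 mice were again inulin 5 and inulin 4. The difference was -0.02 ± 0.13 (SE), with an interval from -0.29 to 0.26. It was 0.09 without inulin 5 and -0.17 ± 0.13 (SE) with the Hox covariate.

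Pax4, a paired-box factor of hormone cell fate, was also lowest in inulin 5 and highest in inulin 4. Control mice had Pax4 at 5.66, 5.58, 5.71, 5.53 and 5.51, and inulin mice from 5.08 over a median of 5.47 to 5.90. The groups overlapped, and the inulin SD was 3.40 times the control SD. The difference was -0.11 ± 0.12 (SE), with an interval from -0.36 to 0.15. It was -0.02 without inulin 5, -0.19 without inulin 4 and -0.29 ± 0.10 (SE) with the Hox covariate.

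Pax6, the other paired-box factor, which takes part in the expression of glucagon and other hormone genes, was at 4.99, 5.36, 5.19, 4.91 and 5.12 in control mice. Inulin mice had Pax6 from 4.81 in inulin 5 over a median of 5.05 to 5.20 in inulin 3. The groups overlapped, and the control mice were the more spread. The difference was -0.07 ± 0.089 (SE), with an interval from -0.26 to 0.12.

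Nkx2-2, a homeodomain factor of hormone cell fate, was among the steadiest of the 9 genes. Control mice had Nkx2-2 at 5.50, 5.42, 5.39, 5.48 and 5.30, and inulin mice from 5.15 in inulin 2 over a median of 5.40 to 5.44 in inulin 3. Inulin 2 and inulin 6 (5.29) lay below the controls and the other inulin mice lay among them. The difference was -0.07 ± 0.064 (SE), with an interval from -0.20 to 0.07.

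Isl1, a LIM homeodomain factor found in hormone cells and neurons, was at 4.82, 4.81, 5.08, 4.88 and 4.92 in control mice. Inulin mice had Isl1 from 4.60 in inulin 5 over a median of 4.85 to 4.92 in inulin 3. Inulin 4 and inulin 5 lay below the controls and the other inulin mice lay among them. The difference was -0.11 ± 0.074 (SE), with an interval from -0.27 to 0.05, and it turned to 0.02 with the mean of adipocyte markers as a covariate.

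**Figure D1:**
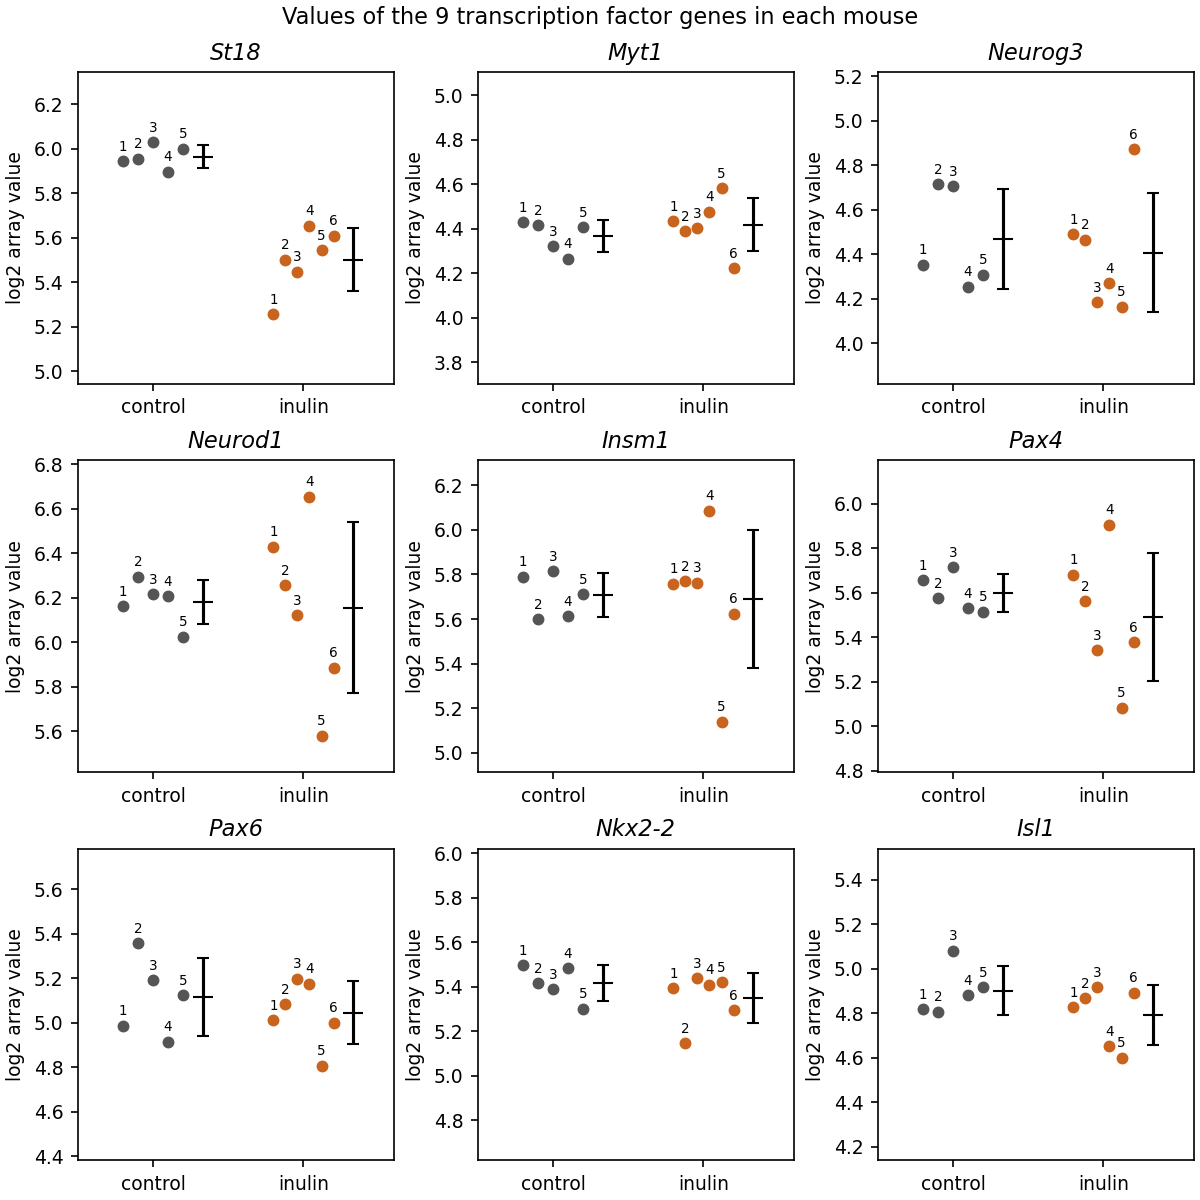
Log2 array value of each of the 9 genes in the 5 control mice (grey) and the 6 inulin mice (orange), numbered by replicate, with a black mark for the mean and SD of each diet; every panel spans the same height. The St18 points of the 2 diets do not overlap, while inulin 4 and inulin 5 mark the top and bottom of Neurod1, Insm1 and Pax4.

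Counted over the list, 8 of the 9 genes had a lower mean under inulin, with a median difference of -0.07, against 48.6% of all 18820 genes lower and a median of 0.0039. St18 was 1 of 9 past an adjusted p of 0.05 in limma, where 0.0903% of all genes passed (0.0372% lower and 0.0531% higher), and 1 of 9 whose inulin mice all lay below the controls, as 1.16% of all genes did, with 2.18% of genes not overlapping in either direction. Since St18 was picked with this contrast known, these shares are no evidence about it. The other 8 genes had differences between -0.11 and 0.05.

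From mouse to mouse, St18 showed no common direction with the other 8 factors. To keep the diet contrast out, the mean of its diet was subtracted from each mouse before correlations were taken over the 11 mice. St18 then had a Pearson r of 0.16 with Pax6, 0.14 with Neurog3, 0.10 with Insm1, 0.02 with Pax4, -0.05 with Myt1, -0.14 with Isl1, -0.16 with Neurod1 and -0.22 with Nkx2-2. Spearman's rho ran from -0.37 with Nkx2-2 to 0.23 with Insm1. Without inulin 1 and control 3, the mice farthest from the St18 median, r ran from -0.40 with Isl1 to 0.45 with Pax4, so the order among the 8 genes rests on single mice. Without inulin 3, 4 and 5 it ran from -0.80 with Neurod1 to 0.54 with Neurog3, with a median of -0.32 against -0.01 over all 11 mice. Among the wider lists, the median r with St18 was 0.05 for 16 other enteroendocrine transcription factors, -0.26 for 15 hormone and granin genes and -0.06 for 19 genes of secretory granules and hormone processing, against -0.02 over all genes.

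Among the 9134 genes ranked, all with a mean at or above the median, those whose deviations were most like St18 came from elsewhere. By Pearson r over the 11 mice they were the nuclear receptor coactivator gene Ncoa1 (0.87), Adam4 (0.86), Snapc3 (0.85), Gpr52 (0.84), Ttll5 (0.83), the Argonaute gene Ago3 (0.82), Fbxl17 (0.81) and the ubiquitin ligase gene Huwe1 (0.81). The most opposed of the genes ranked were the complex I gene Ndufa3 (-0.85), Pomk (-0.84), the retinol dehydrogenase gene Rdh1 (-0.84) and Suds3 (-0.82). Over all genes the lowest r was -0.95, for Galntl5, which was not ranked. Without inulin 1 and control 3 the first 8 had r between 0.33 (Ago3) and 0.76 (Adam4), and the last 4 between -0.82 (Suds3) and -0.60 (Rdh1). Values this far from 0 were held by 0.219% of the genes compared, counting an r of 0.8 or more in size, and with 11 mice and 9134 genes of a mean at or above the median they are given only as the ends of the order. Of these 12 genes Adam4 had the largest difference between diets, at 6.82 in control and 6.47 under inulin.

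The highest correlations among the other 8 factors joined Neurod1, Insm1 and Pax4, and no pair passed the test after adjustment. Over the 11 mice, with diet means removed, r was 0.93 for Neurod1 and Pax4, 0.89 for Insm1 and Pax4 and 0.85 for Neurod1 and Insm1. All 28 pairs among the 8 genes other than St18 were tested by exact permutation over the 86400 rearrangements of mice within their diets (two-sided). The p was 0.0025 for Neurod1 and Pax4, 0.0041 for Insm1 and Pax4 and 0.011 for Neurod1 and Insm1. After Benjamini-Hochberg adjustment over the 28 pairs these were 0.058, 0.058 and 0.107, so 0 of the 28 pairs passed 0.05, while 4 had an unadjusted p under 0.05. Spearman's rho was 0.89, 0.69 and 0.47 for the same pairs, with exact permutation p of 0.0087, 0.019 and 0.17, and adjusted p of 0.149, 0.176 and 0.684.

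The relations leaned on inulin 4 and inulin 5, which are also the mice farthest from the median of each of the genes. Without both, r was 0.74 for Neurod1 and Pax4, 0.54 for Insm1 and Pax4 and 0.25 for Neurod1 and Insm1. Neurod1 and Insm1 thus did not hold together without those mice. Within the control mice (n = 5) the pairs had r of 0.34, 0.77 and -0.34, and within the inulin mice (n = 6) 0.97, 0.90 and 0.93. Of the remaining pairs, the strongest was an opposite one, Myt1 and Isl1, with r = -0.70, rho = -0.77 and exact permutation p of 0.022 and 0.011, or 0.153 and 0.149 after adjustment. Its r was -0.59 without inulin 5 and inulin 6.

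**Figure D2:**
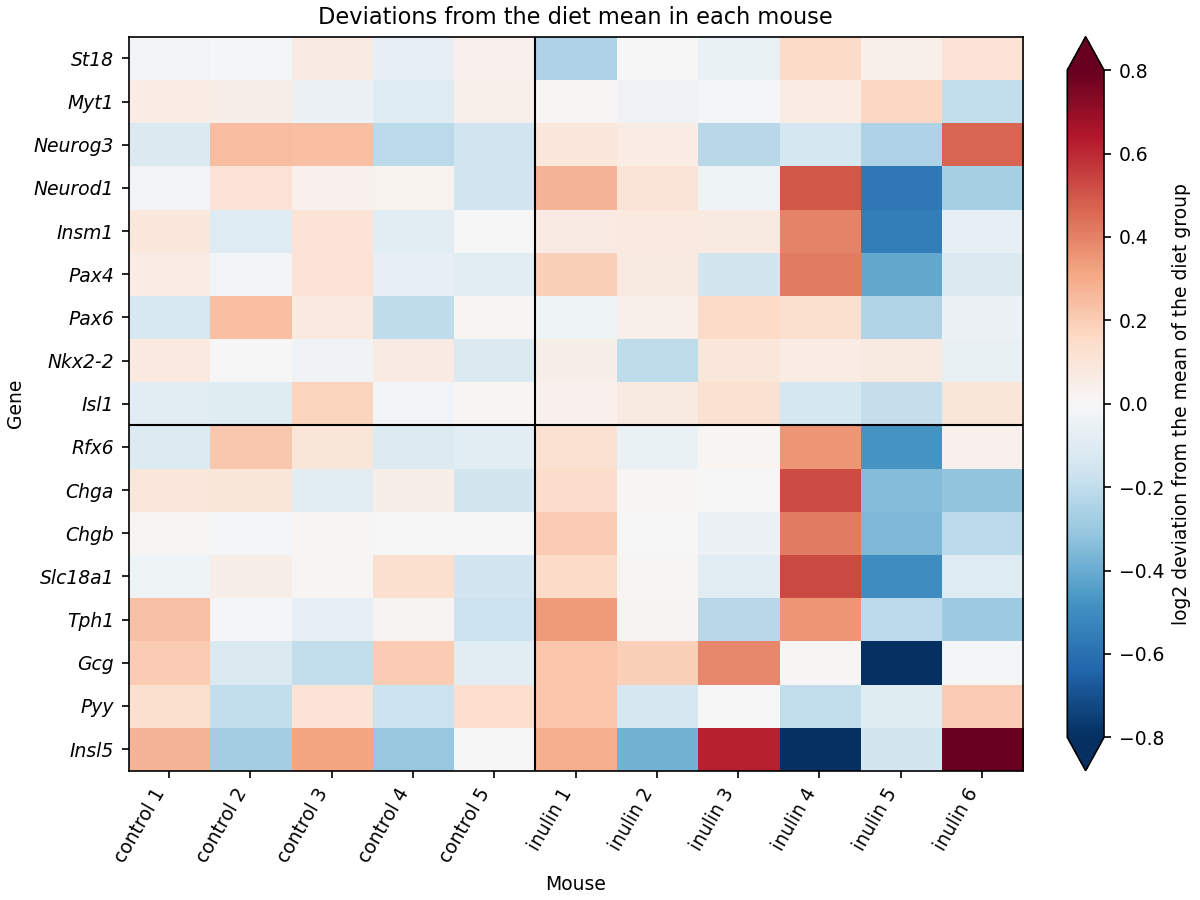
Log2 deviation of each mouse from the mean of its diet (red above, blue below) for the 9 factor genes in the upper block and for Rfx6 and 7 hormone, granule and serotonin genes in the lower block; colours end at 0.8 in size, which Insl5 exceeds in inulin 4 and inulin 6. Inulin 4 is red and inulin 5 blue in Neurod1, Insm1, Pax4, Rfx6, Chga, Chgb and Slc18a1, and the St18 row does not show that pattern.

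Some hormone and granule genes also varied with these 3 factors. The mean deviation of Neurod1, Insm1 and Pax4 had r = 0.96 with Chgb and 0.88 with Chga, the granins of hormone granules. It had r = 0.94 with Slc18a1, the vesicular monoamine transporter of serotonin cells, 0.86 with the factor gene Rfx6 and 0.75 with Tph1, which makes serotonin. The hormone genes Cck and Iapp had 0.89 and 0.73. At r of at least 0.7 stood 5 of 16 other enteroendocrine factors, 5 of 15 hormone and granin genes and 7 of 19 granule and processing genes, against 5.11% of all genes. So did 3 of 22 secretory lineage and Notch genes, 2 of 9 enteric neuron markers, 1 of 7 goblet markers and 1 of 8 islet markers. The tuft, acinar, glial, adipocyte and distal colon lists had 0. Other genes of the enteroendocrine lists lay on the other side of 0. Among the factors r was -0.78 for Pdx1 and -0.51 for Hhex. Both had low signal, with Pdx1 at 3.74 to 4.17 and Hhex at 3.74 to 4.66, and their lowest values were near the lower quartiles. Among the granule and processing genes it was -0.42 for Rab3b, -0.23 for Scg2 and -0.19 for Ddc. These values describe the mice and carry no test, because the 3 genes were joined after their correlations were seen. Without inulin 4 and inulin 5 the counts of the 3 enteroendocrine lists were 0 of 16, 4 of 15 and 2 of 19, against 3.76% of all genes. The secretory lineage, neuron and goblet lists had 0 without these mice, and the islet list 1. Chgb then had 0.87, Tph1 0.83, Cck 0.76, Chga 0.72, Slc18a1 0.65, Iapp 0.34 and Rfx6 0.27, while Pdx1 had -0.82 and Hhex -0.01.

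Insl5 and Pyy did not follow those mice. Insl5, the insulin-like hormone of distal L cells, was lowest in inulin 4 at 7.81 and highest in inulin 6 at 10.18, and its r with the mean of Neurod1, Insm1 and Pax4 was -0.43. Pyy, the satiety peptide of L cells, had r of -0.07. Other tissue in the scrapings also differed in the 2 mice at the ends. Inulin 4 had the lowest Hoxa13 of all mice, at 7.05, with the rest from 7.76 to 8.94. Hoxa13 is a gene of the distal gut, and its r with the same mean was -0.80. The other distal colon genes had -0.60 (Hoxb13), 0.34 (Hoxd10), 0.14 (Hoxd11) and 0.11 (Hoxd12), with a median of 0.11 over all 5. Inulin 5 had the most signal of adipocyte markers, with a mean of 8.07 over 9 measured markers. Inulin 4, at the other end, came next with 7.60, and the lowest was control 5 with 5.41. The 9 markers had a median r of -0.15 with the mean of Neurod1, Insm1 and Pax4. The part of colon position and of other tissue in this pattern was not tested.

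**Figure D3:**
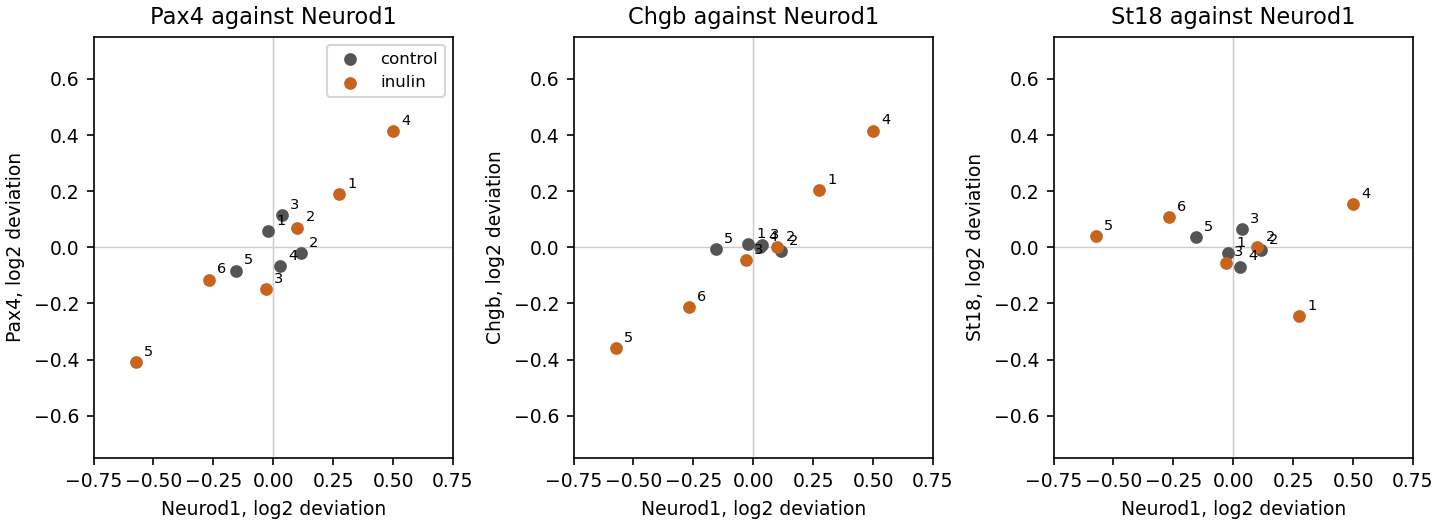
Deviations of Pax4, Chgb and St18 from the diet mean plotted against those of Neurod1 (log2 units) in 5 control mice (grey) and 6 inulin mice (orange), numbered by replicate. Pax4 (r = 0.93) and Chgb rise with Neurod1 from inulin 5 to inulin 4, whereas St18 (r = -0.16) does not.

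The other genes of the enteroendocrine pathway were tested in limma over all 18820 genes, on lists that held none of the 9 factors. These lists were chosen with earlier results of these data known. Their counts beside those of all genes are therefore a description. Among 22 listed further enteroendocrine transcription factors 16 were measured: 6 were higher and 10 lower under inulin, with a median difference of -0.02. None passed, and 0 had an unadjusted p under 0.05, as 13.5% of all genes had. The 3 with the smallest p were Rfx3 (-0.12 ± 0.071 SE), the forkhead gene Foxa2 (-0.26 ± 0.16 SE) and Onecut3 (0.10 ± 0.067 SE), with adjusted p of 0.51, 0.52 and 0.56. Foxa2 was lowest in inulin 4 at 6.31, and its difference turned to 0.09 with adipocyte markers and to 0.01 with the 2 Hox genes Hoxb13 and Hoxa13 taken as covariate. Myt1l, the remaining relative of St18, was at 3.92 to 4.11 in control mice and 3.56 to 4.15 in inulin mice.

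Among 72 measured genes of the 4 pathway lists 1 passed, the hormone gene Cck. Cck, cholecystokinin of I cells, rose in inulin mice: controls had Cck at 4.59, 4.49, 4.57, 4.56 and 4.29, and inulin mice from 4.82 over a median of 5.17 to 5.33, without overlap. The difference was 0.61 ± 0.091 (SE), or 1.53-fold, with a limma adjusted p of 0.025. That call depended on which mice were kept. Cck passed in 4 of 11 fits without 1 mouse and missed without control 1, 2, 3 or 5 or inulin 1, 2 or 3, and over all 24 alternatives the adjusted p ran from 0.0029 to 0.085, with 13 passing. It also missed with each of the 4 covariates taken from other cell types and colon position. The Cck difference itself stayed between 0.48 (Hox covariate) and 0.67 (without inulin 5, adjusted p 0.0029) in all 24, and was 0.62 with the adipocyte covariate. Of the 15 hormone and granin genes 8 were higher and 7 lower, with a median difference of 0.03, and 5 (33.3%) had an unadjusted p under 0.05, against 13.5% of all genes. As the list was chosen with earlier results known, that share is no independent evidence. Nts, neurotensin, differed by 0.83 ± 0.22 (SE, adjusted p 0.16), and Gcg, which encodes glucagon-like peptides, by 0.54 ± 0.17 (SE, adjusted p 0.21). Without inulin 5, whose Gcg of 8.80 lay below every control, the Gcg difference was 0.70 and passed (adjusted p 0.011), while over 24 alternatives it passed in 3, with adjusted p of up to 0.42. Pyy, Insl5 and Chga differed by -0.05 ± 0.097, -0.01 ± 0.34 and -0.0044 ± 0.13 (SE). The Insl5 interval was wide, from -0.74 to 0.72. The Insl5 difference was 0.74 with the adipocyte covariate and 0.61 with the Hox covariate.

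Genes of secretory granules and hormone processing showed no call. Of 20 listed 19 were measured, 9 higher and 10 lower, with a median difference of -0.02 and 1 unadjusted p under 0.05 (5.26%, against 13.5% of all genes). The smallest p belonged to the carboxypeptidase gene Cpe (-0.10 ± 0.047 SE), the granin-like gene Vgf (0.14 ± 0.069 SE) and the decarboxylase gene Ddc (-0.21 ± 0.10 SE), with adjusted p of 0.37, 0.40 and 0.40 in limma. Ddc turned to 0.04 with the adipocyte covariate.

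In the secretory lineage and Notch list all 22 genes were measured, 7 higher and 15 lower, with a median difference of -0.07. None passed in limma, and 6 (27.3%) had an unadjusted p under 0.05, against 13.5% of all genes. This list too was chosen with earlier results known, so the share is a description. Dll1, the Notch ligand of secretory progenitors, was nearest to the threshold. Controls had Dll1 at 6.12, 5.97, 6.35, 6.27 and 6.10, and inulin mice from 5.50 over a median of 5.72 to 5.83, without overlap. Its difference of -0.46 ± 0.078 (SE) had a limma adjusted p of 0.053, which ran from 0.015 to 0.15 over 24 alternatives and passed in 6 of them, among them without inulin 5 (0.023) and without inulin 6 (0.047). The Notch target Hey1 differed by 0.28 ± 0.090 (SE, adjusted p 0.22) and the ligand gene Jag2 by -0.19 ± 0.068 (SE, adjusted p 0.26). Atoh1, which opens the secretory fate upstream of Neurog3, was at 10.23 to 10.65 in control and 10.02 to 10.68 in inulin mice.

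**Figure D4:**
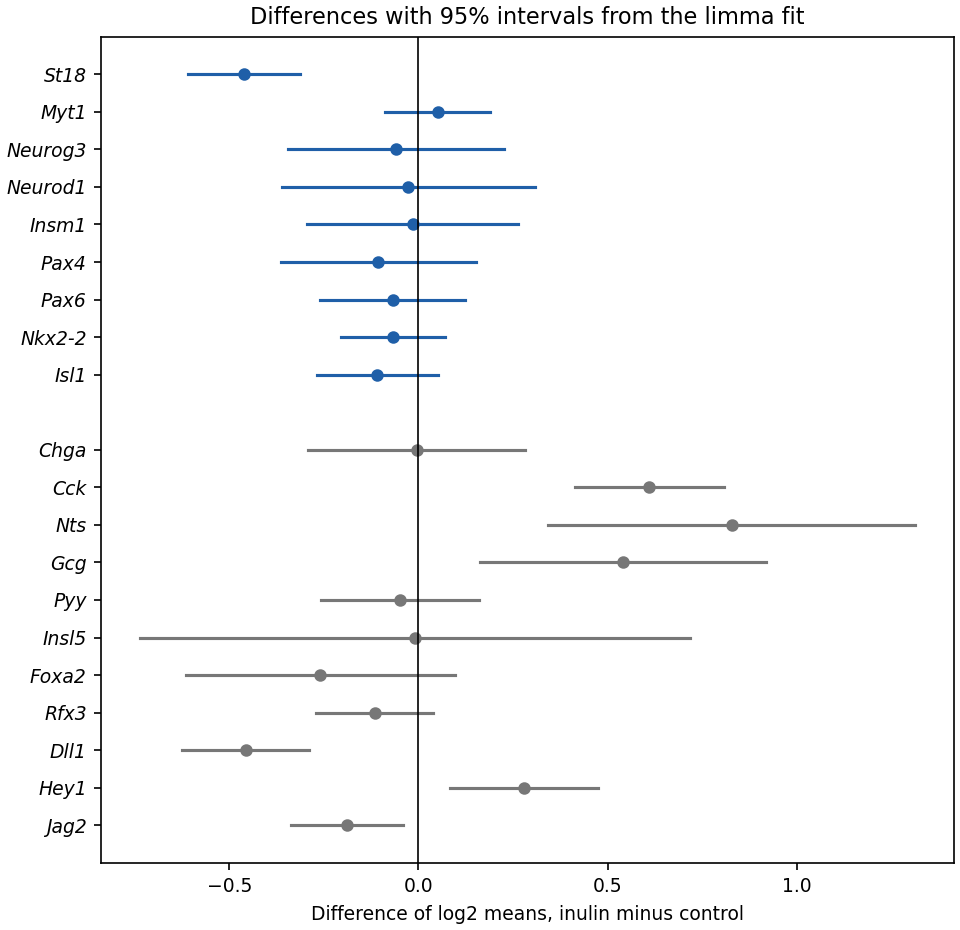
Difference of log2 means, inulin minus control, with its 95% interval from the limma fit, for the 9 factor genes (blue) and for 11 named genes of the wider pathway (grey). St18 is at -0.46 and the other 8 factors lie between -0.11 and 0.05. Cck is the only grey gene past an adjusted p of 0.05.

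Markers of the pancreas and of enteric neurons and glia were checked beside the results. Of 10 listed pancreatic islet markers 8 were measured, with list means from 4.90 to 5.13 in control and 4.88 to 5.11 in inulin mice. The insulin gene Ins2 was at 4.11 to 4.26 and 4.19 to 4.50, and Mafa and G6pc2 were at 3.95 or less in every mouse, near or below the lower quartile. Ppy and Ttr of the islet list lay above the median of every array in all mice. Ppy was at 8.27 to 8.96 and 8.01 to 8.92, and Ttr at 7.60 to 8.84 and 6.83 to 8.28. Ttr had a difference of -0.75 (limma adjusted p 0.24) and the only unadjusted p under 0.05 of the list. Acinar markers of the pancreas were uneven: of 9 measured of 12 listed 8 were higher under inulin, with list means from 4.85 to 6.18 in control and 4.96 to 9.39 in inulin mice, and with Ctrb1 at 11.80 in inulin 3 and from 4.59 to 9.24 elsewhere, Cpa1 at 11.87 and Cpb1 at 10.77. Clps was the acinar marker that was lower under inulin, with a difference of -0.69. The part of acinar markers in the values of the factors was not tested. Of 12 listed enteric neuron markers 9 were measured, with list means from 4.18 to 4.29 and 4.22 to 4.32, Elavl4 at 2.93 to 3.20 below the lower quartile, Uchl1 between 4.21 and 4.74 and Prph between 3.73 and 4.06. Glial markers had list means of 5.48 to 5.57 and 5.47 to 5.67, with Sox10 at 4.47 to 5.02, S100b at 3.85 to 4.29 and Gfap at 3.48 to 3.86. With the mean of neuron markers or of all pancreas markers as a covariate the St18 difference was -0.44 and -0.47.

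Several marker lists lay on one side in inulin mice, with no gene past the threshold. The marker lists were also chosen with earlier results known, so their counts are a description. All 8 measured of 10 tuft cell markers were lower under inulin (median difference -0.33, list means 6.22 to 6.51 in control and 5.90 to 6.23 in inulin mice), among them Dclk1 (-0.41), Trpm5 (-0.58) and Pou2f3 (-0.29), and 0 passed in limma with 6 of 8 at an unadjusted p under 0.05, against 13.5% of all genes. Dclk1 and Trpm5 came near the threshold, with limma adjusted p of 0.057 and 0.055. They were 2 of 8 whose inulin mice all lay below the controls, as 1.16% of all genes did. All 5 measured of 6 distal colon genes were lower too (median -0.69, list means 6.94 to 7.97 and 6.36 to 7.26), with Hoxb13 at -0.62, Hoxa13 at -0.46 and Hoxd10 at -1.50. Hoxd10 and Hoxd11 each had a limma adjusted p of 0.055. All 9 measured adipocyte markers were higher (median 1.32, list means 5.41 to 5.94 and 5.59 to 8.07), with Adipoq at 1.58, Fabp4 at 1.94 and Plin1 at 1.32. Of 7 measured goblet markers 3 were higher and 4 lower, with Muc2 at 0.02, Clca1 at -0.15 and Tff3 at 0.05 and list means of 11.74 to 11.89 and 11.73 to 11.80. Taking Hoxb13 and Hoxa13 as covariate left the St18 difference at -0.46, adipocyte markers gave -0.52, and leaving out inulin 3, 4 and 5 gave -0.51. With diet means removed, St18 had a median r of 0.07 with tuft markers, 0.35 with adipocyte markers and 0.47 with distal colon genes. Over the distal colon genes r ran from -0.03 (Hoxb13) to 0.59 (Hoxd12). The Hox covariate did not hold Hoxd10, Hoxd11 and Hoxd12, which differed by -1.50, -1.45 and -0.69 between the diets. The part of tuft cells and of these Hoxd genes in the St18 difference was not tested.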

How the data were processed

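Gene expression was measured in colon mucosa of 11 mice with 1 array each. The authors deposited log2 values for 35556 probe sets, made with RMA per the submitters' processing notes. The RMA version, genome build and probe set definition were not given in the sources used here. Of the probe sets 21218 carried 1 gene symbol, 1881 several and 12457 were not listed in the platform annotation. For each of 18820 genes the probe set with the highest mean was kept. Inulin was compared with control in limma 3.58.1 (R 4.3.3), with Benjamini-Hochberg adjustment over all genes and a threshold of 0.05. Deviations from diet means were correlated over 11 mice, and pairs of factors were tested by exact permutation within diets. The fit was tested on simulated data.

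The members and lists (162 genes, 141 measured) were chosen with earlier results of these data known. The text names all 9 members, the pathway genes past the threshold, the 3 of smallest p in each pathway list, 6 hormone or granin genes, the first 3 measured genes of each cell type list, and the 8 genes highest and 4 lowest in r with St18 among genes with a mean at or above the median, without predicted genes, small RNAs and olfactory or vomeronasal receptors. Other genes named were chosen after their values were seen. Promoter windows came from RefSeq (GRCm38.p6). Alternatives covered scaling, probe filter, variance prior, array weights, single mice, marker covariates and replicate numbers as a block. Same-numbered mice did not deviate together (correlations -0.10 to 0.22), so the numbers were not taken as pairs. The number of arrays limits the precision.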

Additional observations from a re-analysis of the deposited data

Results flagged for a closer look

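Among 48 groups checked for a mouse far from the rest of its diet, 3 held one, and chance gives about 1 in 20 groups. Gcg, the glucagon gene, was at 8.80 in inulin 5, with the nearest inulin mouse at 9.59. Hey1, a Notch target, was at 5.05 in inulin 5, with the nearest inulin mouse at 4.73. Ddc, a decarboxylase of amine synthesis, was at 8.18 in control 4, with the nearest control mouse at 8.41.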

How the results depend on the processing

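The St18 difference was negative in all 21 alternatives, from -0.52 to -0.41. Leaving out mice could not change its sign, because the 2 diets did not overlap in St18. Of the other factors, Pax4, Pax6 and Nkx2-2 also stayed negative in all 21, and Isl1 in 20. Their values came as near to 0 as -0.025 (Pax4), -0.0015 (Pax6) and -0.026 (Nkx2-2). The main intervals of all 4 factors included 0. The number of genes called, 17 (10 higher, 7 lower), was 62 with each array centred on its median (44 higher, 18 lower), 47 without probe sets below the 40th percentile, 42 with a variance prior following intensity, 245 with array weights, 33 without inulin 3, 4 and 5, and 130 at an adjusted p of 0.1. It was 8, 45 and 11 with pancreas, adipocyte and neuron markers as a covariate, and 7 to 98 without single mice. Of the 72 pathway genes 1 was called; this was 2 with centring, the percentile filter, the intensity prior or without inulin 3, 4 and 5, 3 with array weights, 0 with each of the 4 covariates, and 0 to 3 without single mice. The median r of the factors with St18, -0.01, was -0.32 without inulin 3, 4 and 5 and -0.24 to 0.18 without single mice. With the replicate number as a block, 95 genes and 2 pathway genes (Cck, and Nts at an adjusted p of 0.015) were called, the St18 difference was -0.48 and that median r was 0.24. The causes were not tested. Centring and quantile scaling moved the median of all genes from 0.0039 to 0.030 and 0.010.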
